A study of Mus musculus with 3 samples.

Results

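Il12b-Itgb8 migratory dendritic cells are a set of mature dendritic cells in the lavage fluid of bleomycin-injured mouse lungs, named for Il12b, the gene of the p40 chain of interleukin 12, and Itgb8, the gene of integrin β8. They were picked cell by cell from UMI counts (unique molecular identifiers, each standing for 1 captured transcript). A cell had to have at least 200 genes, at most 20% mitochondrial UMIs, Lyz2 (lysozyme, abundant in macrophages) below 0.5% of its UMIs, and at least 3 UMIs over the migratory genes Ccr7, Fscn1, Ccl22, Cacnb3 and Nudt17. It also had to have at least 2 UMIs over Il12b, Mab21l3, Tm4sf5, Bcl2l14 and Itgb8, and more of these than of each of 2 rival panels, Clu, Ceacam15, Dkk2, Stxbp6 and Il2ra, and Glis3, Mylk, Stard10, Edil3 and Ramp3. This gave 2143 cells of the 42888 that passed the filters on genes and mitochondrial UMIs, and of 7671 migratory cells: 765 from WT GW5074, 577 from KO DMSO and 801 from WT DMSO. Of the other migratory cells, 1902 were led by the Clu panel (Clu-Dkk2-Il2ra cells) and 1331 by the Glis3 panel (Glis3-Mylk-Ramp3 cells), while 2295 were led by no panel. Because measured values chose the cells, the levels of the panel genes are descriptions, and so is every contrast with other migratory cells.

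All 3 groups of mice received bleomycin by airway instillation, and lavage was taken 14 days later, so no uninjured lung is included. The WT GW5074 mice were wild type and received GW5074, which inhibits a protein kinase, at a dose not given in the sources used here. The KO DMSO mice lacked Clec7a, which encodes Dectin-1, a fungal cell wall receptor, and carried the vehicle label DMSO, and the WT DMSO mice were wild type under the same vehicle label. Strain, sex, age, the number of mice and whether the knockout was limited to some cells are not given in the sources used here. Lavage of each group was pooled, sorted for cells positive for CD11b or CD11c, and sequenced as 1 droplet 3' library per group. With 1 library per group there is no replicate and no test between groups: a drug or genotype difference cannot be told apart from a difference between pools or sequencing runs, and the intervals given are 95% intervals that cover counting error only.

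Conventional dendritic cells mature on taking up antigen: they switch on the chemokine receptor CCR7, the actin-bundling protein fascin and co-stimulatory molecules, and travel to draining lymph nodes to present antigen to T cells. The p40 chain pairs with p35 (Il12a) to make interleukin 12, which drives T helper 1 responses, and with p19 (Il23a) to make interleukin 23. Integrin β8 pairs with αv (Itgav) to release active TGF-β from its latent form, and this activity of dendritic cells is known for its part in inducing regulatory and T helper 17 cells. Type 1 conventional dendritic cells, marked by XCR1, CLEC9A and the transcription factor IRF8, are known as a main source of interleukin 12, and type 2 cells depend on IRF4.

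Il12b lies on chromosome 11 of the mouse genome (ENSMUSG00000004296, chr11:44400063-44414033, plus strand, GRCm38), and Itgb8 on chromosome 12 (ENSMUSG00000025321, chr12:119158022-119238802, minus strand).
Mab21l3 is at chr3:101813076-101848959 (minus strand), Tm4sf5 at chr11:70505244-70511178 (plus strand) and Bcl2l14 at chr6:134396318-134438736 (plus strand), so only Il12b and Tm4sf5 share a chromosome.
The 250 bases before the start of Il12b (chr11:44399813-44400062, plus strand, RefSeq, GRCm38.p6) are shown because this gene gave the largest part of the panel's UMIs in each library. Capitals mark the match to the ETS core AGGAAG, here on the opposite strand.

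Il12b upstream: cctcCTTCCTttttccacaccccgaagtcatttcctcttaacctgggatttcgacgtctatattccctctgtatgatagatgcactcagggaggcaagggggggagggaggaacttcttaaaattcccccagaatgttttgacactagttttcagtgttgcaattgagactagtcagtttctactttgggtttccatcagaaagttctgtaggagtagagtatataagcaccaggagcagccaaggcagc

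Motifs were searched on both strands in windows of 250 bases before and 50 after each annotated start, and the ETS core occurred in 3 of the 6 windows of the panel genes (Il12b, Tm4sf5 and 1 of the 2 Bcl2l14 windows) and in 35.4% of all 32851 windows.
The IRF element GAAANNGAA (8.56% of all windows), the AP-1 element TGANTCA (7.81%) and the NF-kB consensus (4.51%) matched none of the 6. A match is only a run of letters in this window.

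The 3 libraries held 34859676 to 45462817 UMIs over 11678 to 17809 barcodes, with a median depth of 2276 UMIs in WT GW5074, 2937 in KO DMSO and 2438.5 in WT DMSO. WT DMSO stood apart in its cells. Neutrophil-type cells were 1.10% of WT GW5074 and 1.86% of KO DMSO, against 25.7% of WT DMSO. Lyz2-high cells (at least 1% of UMIs) were 59.1% of WT GW5074 and 60.8% of KO DMSO, against 22.6% of WT DMSO. Between 80 and 154 barcodes occurred in 2 libraries, none of them in an Il12b-Itgb8 cell. Clec7a itself gave 109.7, 0.590 and 94.8 CPM (UMIs of the gene per 1000000 UMIs summed over the cells) in the Il12b-Itgb8 cells of WT GW5074, KO DMSO and WT DMSO, a single UMI in the knockout. Il12b-Itgb8 cells had median depths of 2091, 2883 and 3661 UMIs and 1064, 1284 and 1565 genes in the same order of libraries.

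Ccr7, Fscn1 and Il12b all helped to choose the cells, so their levels here describe that choice. Ccr7 stood at 2505 CPM in WT GW5074, 2206 CPM in KO DMSO and 1957 CPM in WT DMSO, against 11.2, 8.69 and 14.5 CPM in the Lyz2-high cells. Fscn1 was at 2933, 2836 and 2925 CPM. Il12b gave 1103 CPM in WT GW5074, 1442 CPM in KO DMSO and 794 CPM in WT DMSO, with exact Poisson intervals of 1053 to 1154, 1386 to 1501 and 763 to 826 CPM. It was highest in KO DMSO, then WT GW5074, then WT DMSO, in cells that were chosen in part by this gene. The intervals cover counting error only and say nothing of the spread between pools. The Clu-Dkk2-Il2ra cells had 36.1, 49.1 and 18.5 CPM of Il12b, the Glis3-Mylk-Ramp3 cells 74.2, 79.9 and 37.3 CPM and resting type 1-like dendritic cells 1.53, 1.03 and 1.15 CPM, in the same order of libraries. Although they were 4.30%, 4.96% and 5.95% of kept cells, the Il12b-Itgb8 cells held 73.8% of all Il12b UMIs in WT GW5074, 84.1% in KO DMSO and 86.3% in WT DMSO.

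The other panel genes were less uneven between libraries. Bcl2l14, a BCL2-family gene, stood at 658 CPM in WT GW5074, 672 CPM in KO DMSO and 607 CPM in WT DMSO. Tm4sf5, a four-pass membrane protein gene, stood at 395 CPM in WT GW5074, 473 CPM in KO DMSO and 345 CPM in WT DMSO. Mab21l3 was at 382 CPM in WT GW5074, 262 CPM in KO DMSO and 309.7 CPM in WT DMSO. Itgb8 was the scarcest in UMIs, at 85.1 CPM in WT GW5074, 69.8 CPM in KO DMSO and 61.8 CPM in WT DMSO, against 11.2, 11.1 and 14.7 CPM in the Clu-Dkk2-Il2ra cells. Between 62.8% and 66.8% of each library's Itgb8 UMIs fell in the Il12b-Itgb8 cells. Resting type 1-like cells had 0.510, 0.510 and 0.380 CPM of Itgb8 and T cell-type cells 5.43, 10.6 and 19.5 CPM.

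**Figure D1:**
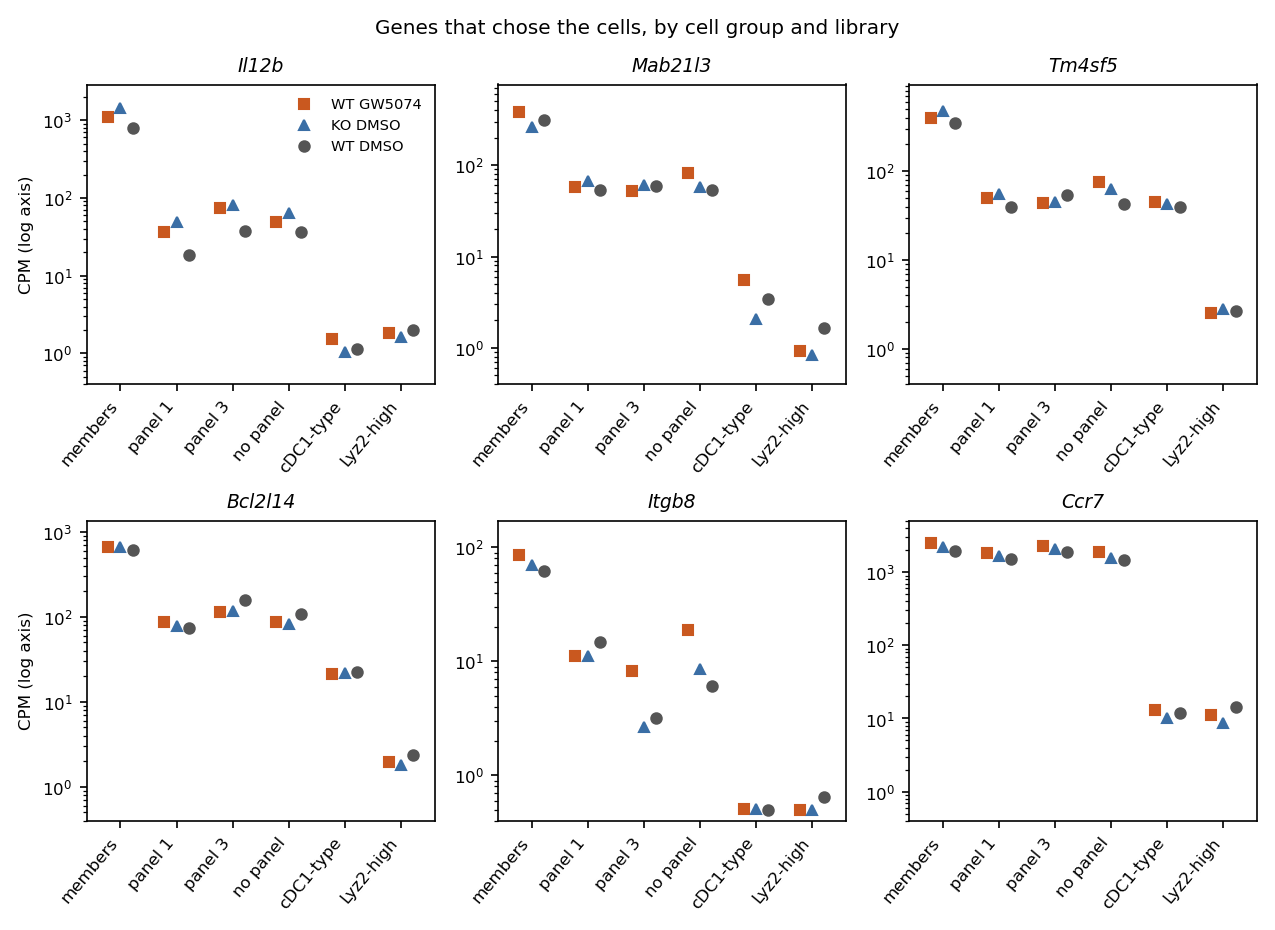
Level of the 5 panel genes and Ccr7 (y, CPM, log axis, values below 0.5 drawn at 0.5) in the Il12b-Itgb8 cells (members), the Clu-Dkk2-Il2ra cells (panel 1), the Glis3-Mylk-Ramp3 cells (panel 3), migratory cells of no panel, resting type 1-like dendritic cells (cDC1-type) and Lyz2-high cells, with 1 point per library. Il12b was at 794 to 1442 CPM in the members and at 18.5 to 79.9 CPM in the panel 1 and panel 3 cells, while Ccr7 was at 1452 to 2505 CPM in all 4 migratory groups.

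Single cells differed in which panel genes they showed. An Il12b UMI was found in 68.6% of the cells of WT GW5074, 72.4% of KO DMSO and 64.0% of WT DMSO, and after each cell was thinned to 1000 UMIs (leaving out 49, 6 and 13 shallower cells) in 51.4, 52.9 and 41.6%. In Lyz2-high cells the thinned share was 0.148, 0.159 and 0.168%, at median depths of 2703, 3299 and 4144 UMIs. Itgb8 was seen in far fewer cells, 11.5% in WT GW5074, 12.5% in KO DMSO and 12.4% in WT DMSO, against 1.53%, 2.38% and 3.18% of the Clu-Dkk2-Il2ra cells. After thinning the shares were 6.70, 5.60 and 4.06%. Most cells were thus chosen without an Itgb8 UMI. The tenth of the cells with the most Il12b held 43.3%, 45.4% and 49.9% of its UMIs, and the highest single cell had 31, 44 and 48. UMIs of 2 panel genes were found in 307, 205 and 282 cells and of 3 in 230, 193 and 252. A single panel gene was seen in 129, 100 and 110 cells, and all 5 in 5, 5 and 22. Both rival panels were at 0 in 45.0%, 30.8% and 29.3% of the cells, so part of the cells also carried some of the other panels' RNA.

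Cells just inside and just outside the limits were compared once, by 4 genes the rule did not use. Irf8 is given for every step. In WT GW5074, KO DMSO and WT DMSO Irf8 was at 448, 339 and 278 CPM in cells with 2 panel UMIs, 415, 319.5 and 246 CPM with 3 and 653, 579.6 and 551 CPM with 4 or more. Cells with a single panel UMI, just outside, had 195, 88.4 and 317 CPM (144, 50 and 62 cells). Those with enough panel UMIs that were tied or exceeded by a rival panel had 422, 253 and 268 CPM (152, 152 and 429 cells). In WT DMSO the cells just outside were thus above those just inside. Between cells with 2 and with 1 panel UMIs, Zdhhc14 was at 456, 119.8 and 185 against 304, 147 and 277 CPM, Gclc at 456, 486 and 234 against 453, 197 and 403 CPM and Cd81 at 113, 126 and 92.7 against 99.7, 59.0 and 26.4 CPM. Cells just inside were thus not above those just outside for every gene and library. Few cells lay at the other limits: 14, 13 and 5 had the smallest allowed sum of 3 migratory UMIs, and 4, 2 and 3 had Lyz2 between 0.4 and 0.5%. At the migratory limit Irf8 was at 147, 141 and 388 CPM inside, against 574, 548 and 1111 CPM outside, with 2 migratory UMIs (12, 6 and 11 cells). The cells outside were thus higher in all 3 libraries. At the Lyz2 limit it was at 111, 940 and 438 CPM inside, against 284, 521 and 260 CPM outside, with Lyz2 of 0.5 to 0.6% (10, 8 and 1 cells).

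Cells with an Il12b UMI (525, 418 and 513) differed from those without (240, 159 and 288) in further genes, at median depths of 2141 against 1986.5, 2960 against 2746 and 3751 against 3435.5 UMIs. Irf8 was at 647 against 445 CPM in WT GW5074, 603 against 328 CPM in KO DMSO and 594 against 324 CPM in WT DMSO. Gclc, the catalytic subunit of the enzyme that limits glutathione synthesis, was at 758 against 361 CPM in WT GW5074, 695 against 382 CPM in KO DMSO and 558 against 229 CPM in WT DMSO. Zdhhc14, a palmitoyltransferase gene, was at 677 against 434 CPM in WT GW5074, 488 against 247 CPM in KO DMSO and 569.8 against 304 CPM in WT DMSO. Both were higher beside Il12b in all 3 libraries. Ccl22, a chemokine gene of mature dendritic cells that the rule used, was at 1541 against 1312 CPM in WT GW5074, 1485 against 706 CPM in KO DMSO and 1620.2 against 844 CPM in WT DMSO. Stat4, the transducer of interleukin 12 signals, was at 1049 against 865 CPM in WT GW5074, 1168 against 899 CPM in KO DMSO and 884 against 681 CPM in WT DMSO. Among the other genes compared, some were also higher in all 3 libraries, such as Rad51b, and others changed direction. Naaa, a type 1 gene, was at 47.7 against 23.5 CPM in WT GW5074, 26.5 against 31.5 CPM in KO DMSO and 24.9 against 58.7 CPM in WT DMSO. In the same order, Ccl5 was at 3846 against 4082, 6164 against 8013 and 4042 against 3376 CPM. Cd80 was at 184 against 175, 255 against 189 and 176 against 261 CPM. Cells without an Il12b UMI were chosen by other panel genes, and their part in this contrast was not tested.

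Transcripts of the p40 chain's partners were all but undetected at this depth. Il12a gave 0 UMIs in the Il12b-Itgb8 cells of every library, which allows up to 1.76 CPM in WT GW5074, 1.77 CPM in KO DMSO and 0.961 CPM in WT DMSO, and 7, 2 and 9 UMIs in all kept cells. Il23a gave 1 UMI in WT GW5074 and none in KO DMSO or WT DMSO, while Il12b gave 1879, 2440 and 2480 UMIs. Il27, the p28 chain of interleukin 27, gave 3, 7 and 12 UMIs, and Ebi3, its partner, was at 21.1 CPM in WT GW5074, 30.1 CPM in KO DMSO and 20.5 CPM in WT DMSO, beside 40.7, 36.9 and 25.6 CPM in resting type 1-like cells. On the receptor side, Il12rb1 gave 1 UMI in WT GW5074 and none elsewhere, while Il12rb2, the signalling chain, was at 81.0 CPM in WT GW5074, 116 CPM in KO DMSO and 48.7 CPM in WT DMSO. Il12rb2 was also at 75.7, 161 and 38.9 CPM in the Clu-Dkk2-Il2ra cells. An Il12rb2 UMI was found in 11.8%, 20.8% and 12.7% of the Il12b-Itgb8 cells and in 10.1%, 21.3% and 8.93% of the Clu-Dkk2-Il2ra cells. Stat4 stood at 994 CPM in WT GW5074, 1097 CPM in KO DMSO and 814 CPM in WT DMSO, against 8.66, 4.62 and 14.9 CPM in resting type 1-like cells. Il6st, a shared receptor chain, was at 81.6, 89.3 and 77.5 CPM. Il18, which acts with interleukin 12 on T cells, gave only 12, 11 and 10 UMIs.

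The integrin and TGF-β genes were mostly level with the other migratory cells. Itgav, the partner chain of Itgb8, was at 32.3 CPM in WT GW5074, 22.5 CPM in KO DMSO and 26.6 CPM in WT DMSO, against 25.8, 20.8 and 32.7 CPM in the Clu-Dkk2-Il2ra cells and 94.7, 98.5 and 90.7 CPM in resting type 1-like cells. The ligand gene Tgfb1 was at 44.6 CPM in WT GW5074, 33.7 CPM in KO DMSO and 46.1 CPM in WT DMSO. Nrros, which tethers latent TGF-β on myeloid cells, was at 136 CPM in WT GW5074, 153 CPM in KO DMSO and 119 CPM in WT DMSO. The receptor genes Tgfbr1 and Tgfbr2 were at 131, 149.6 and 83.6 and 15.8, 10.1 and 13.1 CPM in WT GW5074, KO DMSO and WT DMSO. Itga4, an integrin chain of homing leukocytes, was at 1054, 994 and 978 CPM, against 172, 191 and 179.8 CPM in resting type 1-like cells, whereas Itgae (CD103), a marker of those cells, was at 28.8, 19.5 and 34.0 against 1094, 863 and 980.5 CPM. Aldh1a2, which makes retinoic acid, was at 51.0 CPM in WT GW5074, 78.6 CPM in KO DMSO and 59.9 CPM in WT DMSO, and 90.3, 146 and 81.1 CPM in the Clu-Dkk2-Il2ra cells. Of the 22 genes of this list that were measured well enough, Smad3, beside Itgb8, which the rule used, was at least 1.5-fold higher than in the other migratory cells in all 3 libraries, and Eng was lower. Over all genes 2.79% were higher and 4.67% lower.

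Against the Clu-Dkk2-Il2ra and Glis3-Mylk-Ramp3 cells as 1 group, 2.79% of 7067 genes were at least 1.5-fold higher in the Il12b-Itgb8 cells in all 3 libraries and 4.67% were lower. The comparison group was mostly Clu-Dkk2-Il2ra cells in WT GW5074 (653 against 201) and KO DMSO (588 against 149), and mostly Glis3-Mylk-Ramp3 cells in WT DMSO (981 against 661). Outside the panels, the genes with the largest excess began with Dnase1l3, a secreted nuclease that digests chromatin, at 73.3, 53.8 and 68.5 CPM, against 4.58, 6.04 and 7.09 CPM in the others, in WT GW5074, KO DMSO and WT DMSO. Zdhhc14 was at 604, 424 and 478 against 89.1, 63.2 and 66.9 CPM. Gclc was at 639, 612 and 445 against 168, 151 and 93.7 CPM. The tetraspanin gene Cd81 was at 166, 203 and 143 against 35.4, 45.1 and 43.9 CPM. Dnase1l3 was thus 16.0-fold, 8.90-fold and 9.67-fold higher. The log2 ratios were 2.76, 2.75 and 2.84 for Zdhhc14, 1.92, 2.02 and 2.25 for Gclc and 2.23, 2.17 and 1.71 for Cd81, so the excess was most alike between libraries for Zdhhc14 among these 4.

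The rest of the 15 highest held immune effectors as well as genes better known from other tissues. Mpeg1, the pore-forming protein perforin-2 of phagocytes, had log2 ratios of 1.65, 1.65 and 1.75 in WT GW5074, KO DMSO and WT DMSO. Serpinb1a, an inhibitor of neutrophil proteases, had 2.71, 1.59 and 2.95, and the interferon-induced genes Oasl1 and Ifi211 had 2.09, 2.04 and 1.56 and 2.33, 2.43 and 2.28. Rad51b, a homologous recombination gene, had 2.49, 1.94 and 2.33, Laptm4b, a lysosomal membrane protein gene, 1.87, 1.93 and 2.27, and the protease gene Asprv1 2.68, 2.76 and 2.77. Tnni2 (a troponin of fast muscle, 2.05, 1.97 and 2.22), Ttc39a (1.79, 2.13 and 1.86), P3h2 (a collagen prolyl hydroxylase, 1.69, 2.01 and 2.15) and Afap1 (an actin filament-associated protein, 2.07, 2.96 and 1.59) completed the list. All 15 were past 1.5-fold against the Clu-Dkk2-Il2ra cells alone and against the Glis3-Mylk-Ramp3 cells alone, in each library. Against resting type 1-like cells, 10 of them were also at least 1.5-fold higher in all 3 libraries, Ifi211 and Mpeg1 were lower, and Dnase1l3, Tnni2 and P3h2 were neither.

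Genes low in the Il12b-Itgb8 cells against the other migratory cells included sensors and transporters. Gpr183, the oxysterol receptor EBI2 that positions dendritic cells in lymphoid tissue, was at 31.7, 44.3 and 30.7 CPM, against 107, 223 and 111 CPM in the other migratory cells of WT GW5074, KO DMSO and WT DMSO. Fabp5, a fatty acid carrier, was at 775, 1081 and 754 against 2293, 3769.9 and 2214 CPM, and its relative Fabp4 had log2 ratios of -2.91, -3.06 and -1.92. Zeb2, a transcription factor gene of type 2 and other myeloid lineages, was at 64.0, 49.7 and 57.3 against 280.3, 163 and 157 CPM. Nrp2, a receptor for semaphorins and VEGF, was at 45.2, 36.7 and 48.0 against 239.7, 165 and 201 CPM. Slc7a11, the cystine transporter that feeds glutathione synthesis, had log2 ratios of -1.99, -1.94 and -1.90, so 2 glutathione genes stood on opposite sides, Gclc high and Slc7a11 low. Vdr, the vitamin D receptor, had -1.83, -1.65 and -2.12, Dscam, an adhesion molecule of neurons, -2.97, -2.88 and -2.36, and Il18r1, a chain of the interleukin 18 receptor, -1.49, -1.48 and -1.84. Syn3 (-2.04, -2.08 and -2.19), Apbb2 (-2.00, -2.38 and -1.80), Dock1 (-1.82, -1.88 and -1.58), St8sia1 (-2.05, -1.81 and -1.52), Gda (-1.88, -2.20 and -1.48) and Creb5 (-1.59, -1.40 and -1.40) were the others, again all past 1.5-fold against each rival group alone. Against resting type 1-like cells, none of the 15 lowest was at least 1.5-fold lower in all 3 libraries. The 7 genes Dscam, Nrp2, Syn3, Slc7a11, Vdr, Dock1 and Fabp5 were at least 1.5-fold higher than in those resting cells in all 3. The other 8 were neither.

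**Figure D2:**
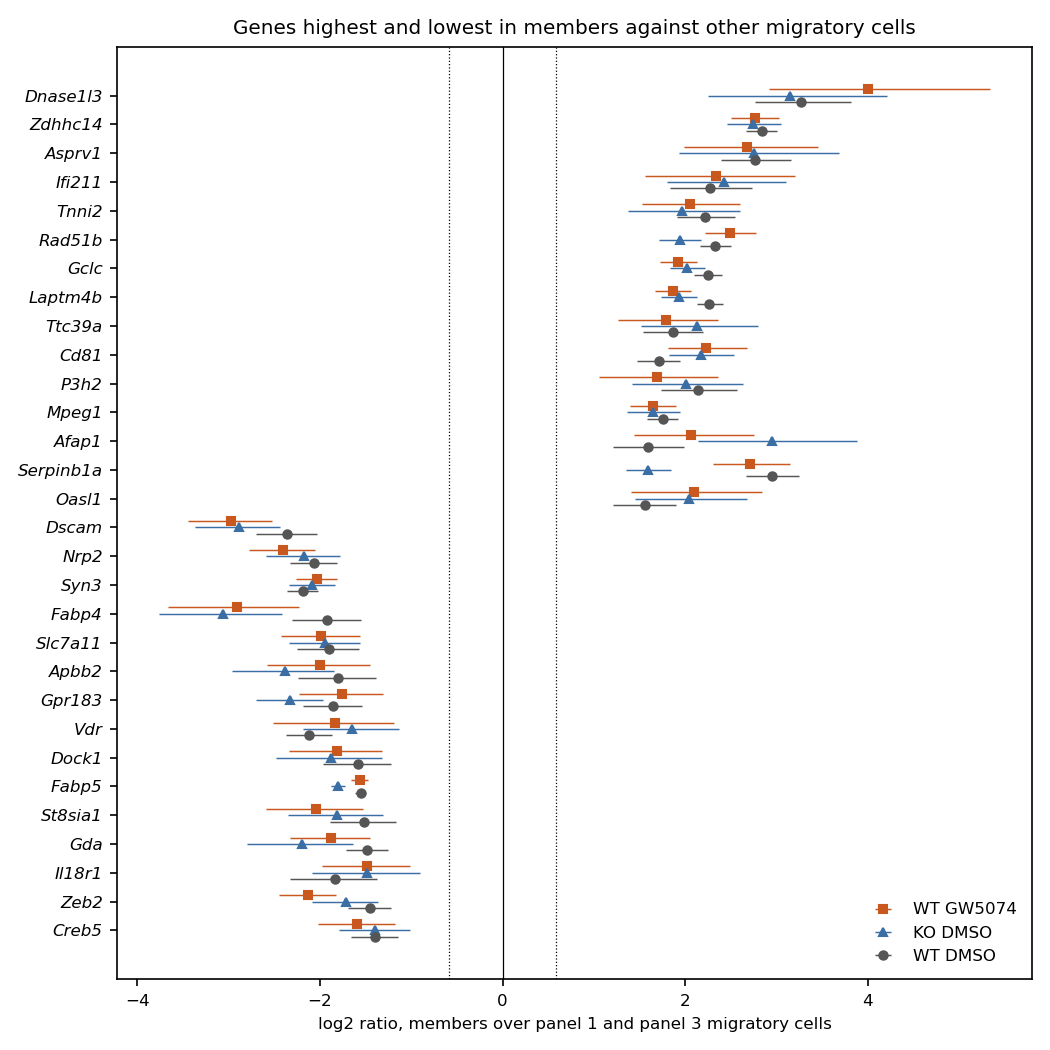
Log2 ratio (x) of Il12b-Itgb8 cells over the Clu-Dkk2-Il2ra and Glis3-Mylk-Ramp3 cells together for the 15 highest and 15 lowest genes outside the rule's panels, with 1 point per library, 95% counting intervals as bars and dotted lines at 1.5-fold. Every point lies past its dotted line because the genes were ranked on the least extreme of the 3 libraries.

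Several lineage genes of type 1 dendritic cells were higher than in the other migratory cells. Of the 13 measured genes of the type 1 list, 7 were at least 1.5-fold higher in all 3 libraries (Xcr1, Clec9a, Irf8, Cadm1, Cd36, Plpp1 and Gcsam) and none was lower, with list medians of 1.12, 1.28 and 1.19 (log2), beside 2.79% of all genes higher. Irf8 was at 587 CPM in WT GW5074, 531 CPM in KO DMSO and 502 CPM in WT DMSO, against 244, 174 and 196 CPM in the Clu-Dkk2-Il2ra cells and 1627, 1312 and 1409 CPM in resting type 1-like cells. Cadm1, an adhesion molecule of type 1 cells, was at 49.3, 38.4 and 50.3 against 10.3, 5.54 and 7.59 and 342, 398 and 279.6 CPM in the same groups. Clec9a, a receptor for dead cells, was at 34.0, 18.9 and 31.4 against 6.88, 3.46 and 7.12 and 277, 252 and 283 CPM. Wdfy4, needed for cross-presentation, and Naaa were low in all migratory cells: Wdfy4 was at 54.6, 55.6 and 58.6 CPM in the Il12b-Itgb8 cells and 2428, 2055 and 2108 CPM in resting type 1-like cells. The resting type 1-like cells were themselves picked by UMIs of Xcr1, Clec9a, Naaa and Cadm1, so their levels of those genes are fixed by the choice.

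Irf4 and Sirpa, genes of type 2 cells, went the other way. Irf4 was at 41.7 CPM in WT GW5074, 34.3 CPM in KO DMSO and 29.1 CPM in WT DMSO, against 114, 67.8 and 82.6 CPM in the Clu-Dkk2-Il2ra cells. Sirpa, the receptor for CD47, was at 54.0, 26.6 and 42.3 against 108, 69.9 and 105 CPM. Both were lower in all 3 libraries than in the other migratory cells together, and none of the 7 measured genes of the type 2 list was higher. Against the Glis3-Mylk-Ramp3 cells alone the Irf4 levels of WT DMSO were alike, at 29.1 and 29.2 CPM. Among the other transcription factors, Irf1, induced by interferon γ, was at 389 CPM in WT GW5074, 296 CPM in KO DMSO and 359 CPM in WT DMSO, against 176, 154 and 152 CPM in the Clu-Dkk2-Il2ra cells and 26.0, 17.9 and 26.4 CPM in resting type 1-like cells. Batf3, which type 1 cells need to develop, was at 257, 289.7 and 277 CPM, against 332, 339.9 and 327 CPM in the Clu-Dkk2-Il2ra cells. Of 40 measured transcription factor and NF-κB genes, Irf1, Irf7 and Irf8 were higher and Irf4, Zeb2, Ikzf1 and Vdr lower, beside 2.79% of all genes higher and 4.67% lower.

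**Figure D3:**
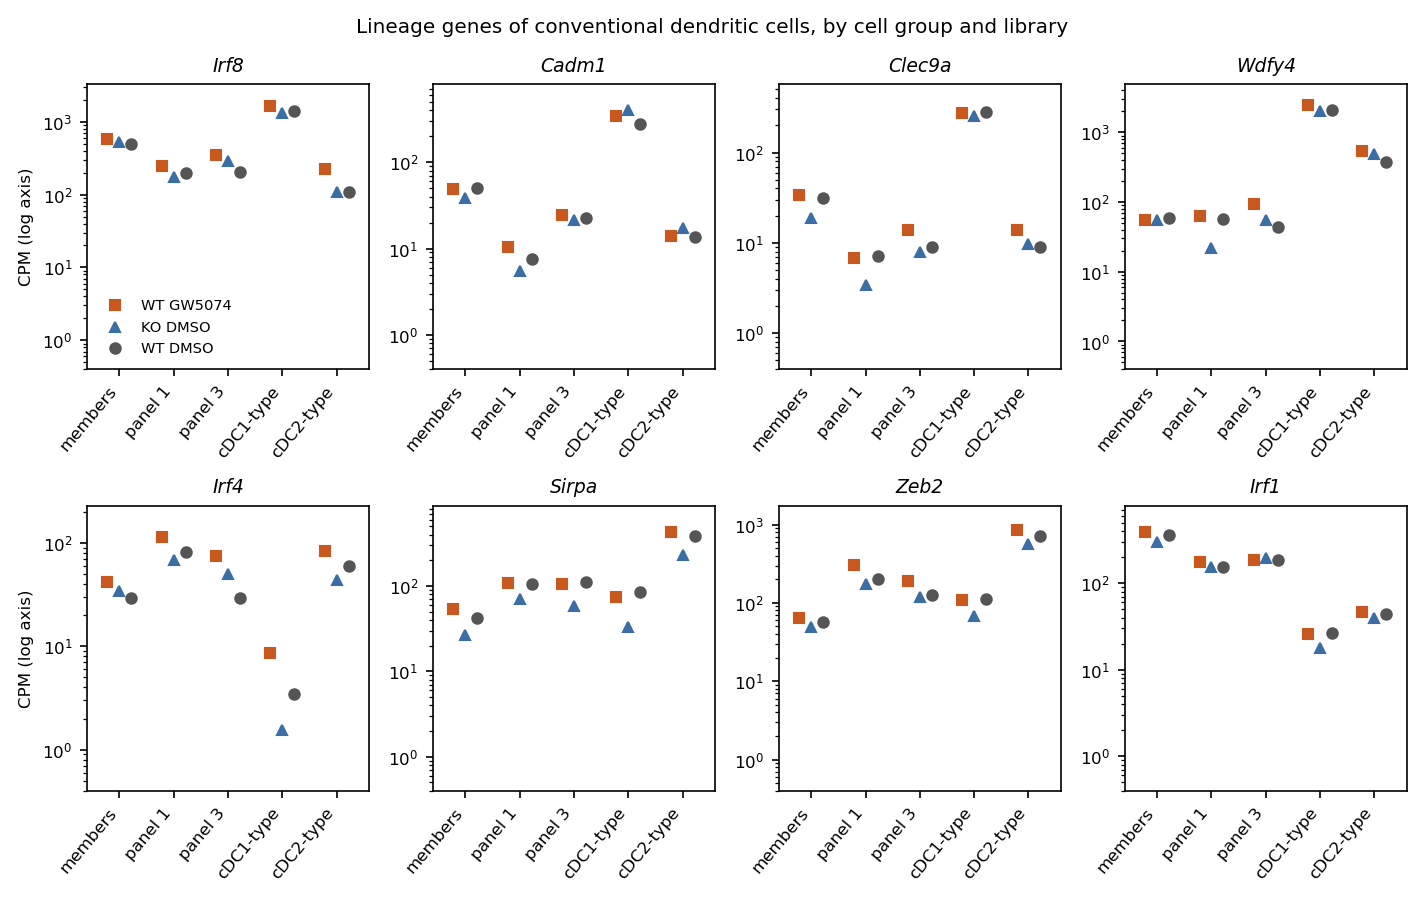
Level (y, CPM, log axis) of 4 genes of type 1 dendritic cells (top) and of Irf4, Sirpa, Zeb2 and Irf1 (bottom) in the Il12b-Itgb8 cells (members), the Clu-Dkk2-Il2ra cells (panel 1), the Glis3-Mylk-Ramp3 cells (panel 3) and resting type 1-like (cDC1-type) and type 2-like (cDC2-type) dendritic cells, with 1 point per library. In the members Irf8, Cadm1 and Clec9a lie between the panel 1 cells and the resting type 1-like cells, Wdfy4 is low in all migratory cells, and Zeb2 is lowest in the members.

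Most maturation genes were within 1.5-fold of the other migratory cells in at least 1 library. Over all 7067 genes, 2.79% were higher and 4.67% lower in all 3 libraries. Of 28 measured genes of the maturation list, Tnfsf9, Tnfrsf4, Pvr and Il4i1 were at least 1.5-fold higher in all 3 libraries and Fas and Tnfrsf9 lower. Tnfrsf4 (OX40) was at 248 CPM in WT GW5074, 280.2 CPM in KO DMSO and 192 CPM in WT DMSO, against 116, 132 and 93.5 CPM in the Clu-Dkk2-Il2ra cells. Il4i1, an enzyme that uses up amino acids needed by T cells, was at 592, 374 and 491 against 390.3, 255 and 344 CPM. The costimulatory genes Cd40 and Cd86 were at 184, 134 and 143 and 211, 217 and 221 CPM, against 173, 135 and 146 and 278, 302 and 279 CPM. Cd80 was at 181, 238 and 205 against 341, 367 and 264 CPM, and the inhibitory ligand gene Cd274 (PD-L1) at 509.9, 458 and 535 against 524, 541 and 515 CPM. Among 8 measured cytokines, Il33 was higher (37.0, 14.2 and 34.6 against 7.74, 6.23 and 11.4 CPM) and Il1b lower (133, 47.9 and 126 against 251, 168 and 196 CPM), and Il15, which sustains T and NK cells, was at 128, 109 and 113 against 118, 121 and 89.7 CPM. Of 13 chemokine genes only Gpr183 passed, on the low side: Ccl22, Ccl17 and Ccl5 were near the other migratory cells, with log2 ratios of 0.47, 0.32 and 0.41, 0.0045, -0.12 and -0.015 and 0.36, 0.39 and 0.52.

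The following counts stand beside the same 2.79% of all genes higher and 4.67% lower. In antigen presentation, the class II genes H2-DMb2 and H2-Oa, which edit peptide loading, were lower and Lgmn, a lysosomal protease gene, higher, of 15 measured. H2-Aa had log2 ratios of 0.17, 0.36 and 0.18. Of 19 class I genes, Nlrc5, their transactivator, was higher (363, 326 and 342 against 186, 166 and 195 CPM in the Clu-Dkk2-Il2ra cells), while H2-K1 and H2-D1 were above the others by less than 1.5-fold, with 0.43, 0.51 and 0.58 and 0.50, 0.51 and 0.56. Of the Dectin-1 pathway, the kinase gene Syk was at 92.1, 78.6 and 103 against 239, 194 and 262 CPM in the Clu-Dkk2-Il2ra cells. Malt1 was at 213, 225 and 179 against 386, 417 and 318 CPM. Both were lower in all 3 libraries and the kinase gene Src was higher, of 19 measured. Of 14 type I interferon genes 3 were higher (Oasl1, Irf7 and Zbp1), of 20 survival genes Bcl2l1 and Gadd45b (beside Bcl2l14, which the rule used), and of 30 cytoskeletal genes Rhoc, Adam8 and Basp1. None of 20 heat shock and dissociation genes differed in all 3 libraries.

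Genes whose level followed Il12b over cell groups were ranked by Pearson's r over 21 points (7 cell groups in 3 libraries, on log2 of CPM plus 5), given as a description since the points share libraries and include the chosen cells. Txndc17, a thioredoxin-like protein gene, came out highest with r of 0.97, then Rad51b (0.9688), Nudt9 (0.9459), Fgfbp3 (0.9417) and Gclc (0.9404). For Itgb8 the order was Map2k1 (0.9443), the gene of the kinase MEK1, then Asprv1 (0.9411), Rad51b (0.935) and Gclc (0.9225), so Rad51b and Gclc stood near the top of both.

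How common the cells were depended on what they were counted against. They made up 4.30% (4.01 to 4.61) of kept cells in WT GW5074 and 4.96% (4.57 to 5.37) in KO DMSO, against 5.95% (5.56 to 6.37) in WT DMSO, with log2 ratios of -0.47 and -0.26. Of migratory cells they were 29.1% in WT GW5074 and 33.1% in KO DMSO, against 24.3% in WT DMSO. With neutrophil-type cells left out of the count the shares were 4.35% in WT GW5074 and 5.05% in KO DMSO, against 7.99% in WT DMSO, now 1.84-fold and 1.58-fold lower. Of kept cells with Lyz2 below the limit, the shares were 14.8% in WT GW5074 and 16.0% in KO DMSO, against 9.06% in WT DMSO, 1.64-fold and 1.76-fold higher, so the direction turned with the denominator. Those low-Lyz2 cells were 29.0% of WT GW5074, 31.0% of KO DMSO and 65.7% of WT DMSO. Beside the Clu-Dkk2-Il2ra cells alone the balance was nearly even and alike, with 53.9% in WT GW5074 and 49.5% in KO DMSO, against 54.8% in WT DMSO. The Glis3-Mylk-Ramp3 cells, in contrast, were 7.63% of migratory cells in WT GW5074 and 8.54% in KO DMSO, against 29.8% in WT DMSO. When every cell was thinned to 1000 UMIs before the rule, 3.15%, 3.56% and 4.57% of cells in WT GW5074, KO DMSO and WT DMSO passed it, after 2036, 966 and 3494 shallower cells had been left out.

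**Figure D4:**
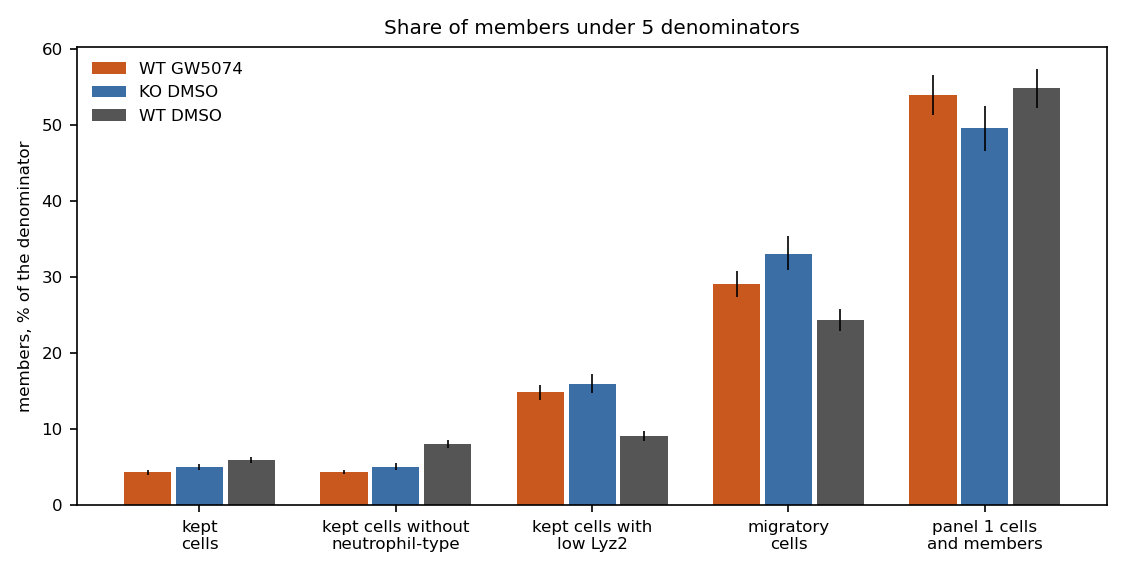
Share of Il12b-Itgb8 cells (members, y, %) in each library under 5 denominators, with exact Clopper-Pearson 95% intervals as error bars. WT DMSO is highest of kept cells (5.95%) and lowest of kept cells with low Lyz2 (9.06%), and the 3 libraries are close beside the panel 1 (Clu-Dkk2-Il2ra) cells, at 49.5 to 54.8%.

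Under GW5074, in Il12b-Itgb8 cells, 2.23% of 7480 genes were higher than in WT DMSO and 4.32% were lower. Higher or lower means here a ratio of at least 1.5-fold whose 95% counting interval excludes 1, which compares 2 libraries and not 2 treatments. Il12b was at 1103 CPM in WT GW5074, against 794 CPM in WT DMSO, 1.39-fold higher (95% interval 1.31 to 1.47), and so did not reach 1.5-fold, nor did Itgb8 (85.1 CPM in WT GW5074, against 61.8 CPM in WT DMSO) or any of the 5 panel genes. Il12rb2 was higher, at 81.0 CPM in WT GW5074, against 48.7 CPM in WT DMSO, 1.66-fold higher (95% interval 1.31 to 2.11). None of the 28 maturation genes was higher or lower (list median 0.14, beside -0.011 over all genes), and none of the 30 cytoskeletal or 19 class I genes. In the integrin and TGF-β list 3 of 23 were higher: Itgax (CD11c, 39.9 CPM in WT GW5074, against 24.0 CPM in WT DMSO), Tgfbr1 (131 CPM in WT GW5074, against 83.6 CPM in WT DMSO) and Tgif1, a repressor of TGF-β responses, (51.0 CPM in WT GW5074, against 33.3 CPM in WT DMSO). Smad7, a feedback inhibitor, was lower (12.9 CPM in WT GW5074, against 22.1 CPM in WT DMSO). Beyond the 2-fold minimum, alternatives ended the Smad7 call 9 times, Tgif1 6 times, Tgfbr1 3 times and Itgax and Il12rb2 2 times each.

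Of the 10 genes with the largest excess in WT GW5074, 4 were on the macrophage list. Gpnmb was at 55.2 CPM in WT GW5074, against 17.6 CPM in WT DMSO, 3.13-fold higher (95% interval 2.22 to 4.45). The lysosomal protease gene Ctsd was at 357 CPM in WT GW5074, against 168 CPM in WT DMSO. Apoe, a lipid carrier gene, was at 212 CPM in WT GW5074, against 112 CPM in WT DMSO. Lyz2, which the rule limits, was at 1011 CPM in WT GW5074, against 425 CPM in WT DMSO. Of 19 measured macrophage markers 11 were higher and 2 lower, beside 2.23% of all genes higher and 4.32% lower. The summed level of the 21 genes of that list was 3048 CPM in WT GW5074 and 2985 CPM in KO DMSO, against 2071 CPM in WT DMSO, with 0, 1 and 0 of its genes at 0. Lyz2-high cells were also more frequent in both libraries than in WT DMSO, and the part of their RNA in these values was not tested. Outside that list, S100a10, a calcium-binding protein gene, was at 278 CPM in WT GW5074, against 139 CPM in WT DMSO, 2.01-fold higher (95% interval 1.76 to 2.29), and the mitochondrial leucine-tRNA synthetase gene Lars2 at 126 CPM in WT GW5074, against 60.5 CPM in WT DMSO. Renbp (55.7 CPM in WT GW5074, against 33.0 CPM in WT DMSO), Dexi (63.4 CPM in WT GW5074, against 38.4 CPM in WT DMSO) and the interferon-induced Ifi27l2a (129.7 CPM in WT GW5074, against 80.4 CPM in WT DMSO) completed the 10 highest, and alternatives beyond the 2-fold minimum ended the Dexi call 3 times and those of Renbp and Ifi27l2a 1 time each.

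Klhl6, a ubiquitin ligase adaptor gene (ENSMUSG00000043008, chr16:19946496-19983037, minus strand), had the lowest ratio, at 3.52 CPM in WT GW5074, against 51.6 CPM in WT DMSO, 14.6-fold lower (95% interval 6.58 to 40.5). KO DMSO was at the same low level, 3.55 CPM. The log2 ratio of WT GW5074 over WT DMSO was -3.87 in the Il12b-Itgb8 cells, -3.65 in the Clu-Dkk2-Il2ra cells and -0.97 in the Lyz2-high cells. Fkbp5, a glucocorticoid-induced chaperone gene, was at 19.9 CPM in WT GW5074, against 58.3 CPM in WT DMSO, 2.92-fold lower (95% interval 2.02 to 4.35). Ddit4, an inhibitor of mTOR that is likewise hormone-induced, was at 5.28 CPM in WT GW5074, against 31.7 CPM in WT DMSO. Of 14 measured glucocorticoid-induced genes 6 were lower and Sgk1 was higher (35.2 CPM in WT GW5074, against 17.9 CPM in WT DMSO), with a list median of -0.58. Over all genes 4.32% were lower and 2.23% higher. Kcp (22.3 CPM in WT GW5074, against 64.0 CPM in WT DMSO), Pdcd4, a translation inhibitor gene (35.2 CPM in WT GW5074, against 71.7 CPM in WT DMSO), the cold-induced RNA-binding protein gene Cirbp (38.7 CPM in WT GW5074, against 76.9 CPM in WT DMSO) and Mrpl18 (28.8 CPM in WT GW5074, against 57.0 CPM in WT DMSO) were also among the 10 lowest. The calls of Fkbp5, Cirbp, Mrpl18 and Sgk1 were lost with thinning.

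The remaining 4 of the 10 lowest belong to the neutrophil or macrophage lists. S100a8 was at 99.8 CPM in WT GW5074, against 698 CPM in WT DMSO. S100a9 was at 56.3 CPM in WT GW5074, against 440.4 CPM in WT DMSO. The decoy receptor gene Il1r2 was at 7.04 CPM in WT GW5074, against 50.3 CPM in WT DMSO. Chil3 was at 79.2 CPM in WT GW5074, against 199 CPM in WT DMSO. All 8 measured neutrophil markers were lower, and the summed level of the 14 was 182 CPM in WT GW5074 and 57.9 CPM in KO DMSO, against 1303 CPM in WT DMSO (4, 7 and 1 of the genes at 0). At least 2 neutrophil UMIs were found in 1.18% of the cells of WT GW5074 and 1.04% of KO DMSO, against 36.0% of WT DMSO. Without those cells the log2 ratio of WT GW5074 over WT DMSO was -2.37 for S100a8, -2.57 for Klhl6 and -1.31 for Fkbp5, whereas Il1r2 came to -0.51 and Chil3 to 0.48, no longer lower. S100a8, S100a9 and Il1r2 are on the neutrophil list that removed those cells, so the change in their ratios was built into the choice. Chil3 is not on that list. The haemoglobin genes gave 0 UMIs in WT GW5074 and 3 in KO DMSO, against 771 in WT DMSO, of which 761 were in a single cell. Heat shock and dissociation genes included 8 lower and none higher of 23, beside 4.32% of all genes lower. Without the cells that carried neutrophil UMIs, Fos, Egr1, Ier2 and Ier3 were no longer lower, while Hspa1a, Hspa1b, Dnajb1 and Cirbp were. With thinning all 8 lost the call. The 8 include the near-identical pair Hspa1a (8.80 CPM in WT GW5074, against 33.3 CPM in WT DMSO) and Hspa1b (7.04 CPM in WT GW5074, against 34.0 CPM in WT DMSO), whose reads may be split between the copies, and Ier3 (14.1 CPM in WT GW5074, against 44.5 CPM in WT DMSO).

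In the MEK-ERK list, 4 of 20 genes were lower and none higher (median -0.049), beside 4.32% of all genes lower: Ier3, Egr1 (22.3 CPM in WT GW5074, against 39.1 CPM in WT DMSO), Ier2 (29.9 CPM in WT GW5074, against 45.2 CPM in WT DMSO) and Fos (27.0 CPM in WT GW5074, against 51.6 CPM in WT DMSO). The feedback phosphatase gene Dusp5 (334 CPM in WT GW5074, against 303 CPM in WT DMSO) and Spred1 (255 CPM in WT GW5074, against 246 CPM in WT DMSO) were neither. Without the cells that carried neutrophil UMIs none of the 4 was lower: the log2 ratio was -0.73 for Ier3, 0.037 for Egr1, -0.044 for Ier2 and -0.35 for Fos; the Ier3 interval included 1. Of 24 cholesterol and lipid genes 5 were higher (list median 0.34), beside 2.23% of all genes higher. Among them were Apoe, Lpl (42.2 CPM in WT GW5074, against 24.7 CPM in WT DMSO), Fasn (14.1 CPM in WT GW5074, against 7.37 CPM in WT DMSO, with a log2 ratio of -0.12 after thinning) and Npc1 (25.8 CPM in WT GW5074, against 15.7 CPM in WT DMSO). Apol7c, the gene of a lipid-binding protein of dendritic cells, was lower (460.0 CPM in WT GW5074, against 709 CPM in WT DMSO). Among the type I interferon genes Isg15 (72.8 CPM in WT GW5074, against 121 CPM in WT DMSO), Ifit1 and Oasl2 were lower and Irf7 (24.6 CPM in WT GW5074, against 14.4 CPM in WT DMSO) higher, of 15 measured. Beyond the 2-fold minimum, alternatives ended the call of Npc1 8 times, of Fasn and Apol7c 7 times each, of Isg15 and Oasl2 6 times each and of Ifit1 4 times. In the transcription factor list, Vdr was lower (15.8 CPM in WT GW5074, against 49.3 CPM in WT DMSO) and Irf7 higher, of 40, near or below the shares over all genes. Irf8 was at 587 CPM in WT GW5074, against 502 CPM in WT DMSO, within 1.5-fold.

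In the knockout, 3.89% of 7476 genes were higher than in WT DMSO and 12.5% were lower in the Il12b-Itgb8 cells, with a median log2 ratio of -0.12 over all genes. Clec7a (chr6:129461591-129472779, minus strand, a polymorphic pseudogene in the annotation) was at 0.590 CPM in KO DMSO, against 94.8 CPM in WT DMSO, 160.4-fold lower (95% interval 28.6 to 6355). Il12b, used by the rule, was at 1442 CPM in KO DMSO, against 794 CPM in WT DMSO, 1.82-fold higher (95% interval 1.72 to 1.92). When the cells were chosen without Il12b the log2 ratio was 0.90, and when every cell was thinned before the rule it was 0.65, against 0.86 here. In the Clu-Dkk2-Il2ra cells, whose choice also used Il12b and limits its level, Il12b was at 49.1 CPM in KO DMSO, against 18.5 CPM in WT DMSO. Il12rb2 was higher too, at 116 CPM in KO DMSO, against 48.7 CPM in WT DMSO, 2.39-fold higher (95% interval 1.93 to 2.98), with a UMI in 20.8% of the cells of KO DMSO, against 12.7% of WT DMSO. Stat4 (1097 CPM in KO DMSO, against 814 CPM in WT DMSO) and Itgb8 (69.8 CPM in KO DMSO, against 61.8 CPM in WT DMSO) were within 1.5-fold.

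Class II genes lay above WT DMSO. All 15 measured class II genes had a positive ratio (list median 0.36) and 3 were higher, beside 3.89% of all genes higher. Cd74, the invariant chain, was at 7859.7 CPM in KO DMSO, against 4525 CPM in WT DMSO. H2-Aa was at 3678 CPM in KO DMSO, against 2187 CPM in WT DMSO. H2-Eb1 was at 2803 CPM in KO DMSO, against 1821 CPM in WT DMSO, a call that some alternatives ended. Of 19 class I genes 3 were lower, near the 12.5% of all genes lower, and the list median was -0.077, against -0.12 over all genes. They were the nonclassical H2-T23 (Qa-1) at 209 CPM in KO DMSO, against 622 CPM in WT DMSO, 2.98-fold lower (95% interval 2.66 to 3.35), and the peptide transporter genes Tap1 (200.4 CPM in KO DMSO, against 340.1 CPM in WT DMSO) and Tap2 (137 CPM in KO DMSO, against 223 CPM in WT DMSO), while H2-K1 was at 3017 CPM in KO DMSO, against 3364 CPM in WT DMSO. The log2 ratio of H2-T23 was -1.56 in the Clu-Dkk2-Il2ra cells and -1.07 in Lyz2-high cells. Class I genes have close copies, and reads may be split between them. Among chemokines, Ccl5, which draws T cells, was higher, at 6650.2 CPM in KO DMSO, against 3813 CPM in WT DMSO, 1.74-fold higher (95% interval 1.70 to 1.79), and Cxcr4 lower, at 17.7 CPM in KO DMSO, against 38.8 CPM in WT DMSO. The cytokine list had none higher and 4 of 9 lower, beside 12.5% of all genes: Il1b (47.9 CPM in KO DMSO, against 126 CPM in WT DMSO), Il33 (14.2 CPM in KO DMSO, against 34.6 CPM in WT DMSO), Il1rn (13.6 CPM in KO DMSO, against 25.0 CPM in WT DMSO) and Csf1 (4.14 CPM in KO DMSO, against 15.4 CPM in WT DMSO). The Csf1 and Il1rn calls were lost without the cells that carried neutrophil UMIs, and those of Csf1, Il1rn, Il33 and Cxcr4 with thinning. Of 28 maturation genes Slamf7 was higher (251 CPM in KO DMSO, against 154 CPM in WT DMSO) and Tnfsf9 lower (17.1 CPM in KO DMSO, against 26.6 CPM in WT DMSO), calls that 2 and 11 alternatives beyond the 2-fold minimum ended. A single gene each way among 28 is no more than the 3.89% of all genes higher and 12.5% lower.

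Chaperone genes were among those with the largest excess in the knockout. Ahsa1, an activator of HSP90, was at 60.3 CPM in KO DMSO, against 17.0 CPM in WT DMSO, 3.55-fold higher (95% interval 2.52 to 5.05). Hsp90aa1 was at 516 CPM in KO DMSO, against 201 CPM in WT DMSO, 2.56-fold higher (95% interval 2.31 to 2.84), and Hsph1 had a log2 ratio of 1.12. Of 23 heat shock and dissociation genes 5 were higher (Hsp90aa1, Hsp90ab1, Hsph1, Hspd1 and Btg2) and 6 lower, beside 3.89% of all genes higher and 12.5% lower. Hspd1 lost the call under 5 alternatives. Among the 6 lower were Hspa1b (8.28 CPM in KO DMSO, against 34.0 CPM in WT DMSO) and Cirbp (21.3 CPM in KO DMSO, against 76.9 CPM in WT DMSO). For Hsp90aa1 and Ahsa1, WT GW5074 was near WT DMSO, at 195 and 18.2 CPM. By contrast, S100a10, Il12rb2 and Lyz2, also among the 10 highest of the knockout, were higher in WT GW5074 too. In Lyz2-high cells the log2 ratio of KO DMSO over WT DMSO was 0.35 for Hsp90aa1 and 0.42 for Ahsa1, and in the Clu-Dkk2-Il2ra cells 1.28 and 0.93. Ehd1, an endosomal recycling gene, was at 252 CPM in KO DMSO, against 86.2 CPM in WT DMSO. S100a10 was at 369 CPM in KO DMSO, against 139 CPM in WT DMSO. Ass1, the argininosuccinate synthase gene, was at 205 CPM in KO DMSO, against 78.5 CPM in WT DMSO. Emp3 was at 123 CPM in KO DMSO, against 49.6 CPM in WT DMSO and the splicing helicase gene Ddx23 at 54.4 CPM in KO DMSO, against 22.4 CPM in WT DMSO.

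On the low side stood Klhl6 again (3.55 CPM in KO DMSO, against 51.6 CPM in WT DMSO), Apol7c (247 CPM in KO DMSO, against 709 CPM in WT DMSO, 2.88-fold lower with a 95% interval of 2.59 to 3.20) and Gda, a guanine deaminase gene (18.9 CPM in KO DMSO, against 62.8 CPM in WT DMSO), beside S100a8, S100a9, Il1r2 and Chil3. Without the cells with neutrophil UMIs the log2 ratios of KO DMSO over WT DMSO were -2.55 for Klhl6, -1.61 for Apol7c, -1.05 for Gda and -2.18 for S100a8, while Il1r2 and Chil3 turned to 0.18 and 0.15. The changes in S100a8 and Il1r2 were built into the choice, since UMIs of both helped to remove the cells. Of the 14 glucocorticoid-induced genes 8 were lower (median -1.03), beside 12.5% of all genes lower. Among them were Fkbp5 (24.2 CPM in KO DMSO, against 58.3 CPM in WT DMSO) and Ddit4 (5.32 CPM in KO DMSO, against 31.7 CPM in WT DMSO). Nfkbia was higher (706 CPM in KO DMSO, against 429 CPM in WT DMSO), beside 3.89% of all genes higher. Of 19 Dectin-1 pathway genes 6 were lower and none higher, beside 12.5% of all genes lower. The 6 include Clec7a, the gene the knockout lacks, so its call follows from the genotype. Also among them were Prkcd (170.3 CPM in KO DMSO, against 325 CPM in WT DMSO), Nfatc1 (a call that 4 alternatives beyond the 2-fold minimum ended), Lyn (115 CPM in KO DMSO, against 172 CPM in WT DMSO, a call that 10 alternatives ended) and Inpp5d (98.1 CPM in KO DMSO, against 189.6 CPM in WT DMSO). Syk was at 78.6 CPM in KO DMSO, against 103 CPM in WT DMSO. Card9 was at 6.50 CPM in KO DMSO, against 7.37 CPM in WT DMSO. Neither passed the limits. Of 20 MEK-ERK genes 5 were lower and none higher, beside 12.5% of all genes lower, and Egr1, Ier2 and Ier3 among them lost the call without the cells that carried neutrophil UMIs. Itgae was lower (19.5 CPM in KO DMSO, against 34.0 CPM in WT DMSO), as were Clec9a (18.9 CPM in KO DMSO, against 31.4 CPM in WT DMSO) and Sirpa (26.6 CPM in KO DMSO, against 42.3 CPM in WT DMSO), whereas Irf8 (531 CPM in KO DMSO, against 502 CPM in WT DMSO) and Irf4 (34.3 CPM in KO DMSO, against 29.1 CPM in WT DMSO) were within 1.5-fold. Without the cells that carried neutrophil UMIs the Itgae, Clec9a and Sirpa calls were lost, with a log2 ratio of 0.016 for Sirpa, and all 3 were also lost with thinning. The comparisons of WT GW5074 and KO DMSO share the WT DMSO library, so likeness between them is no further evidence.

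**Figure D5:**
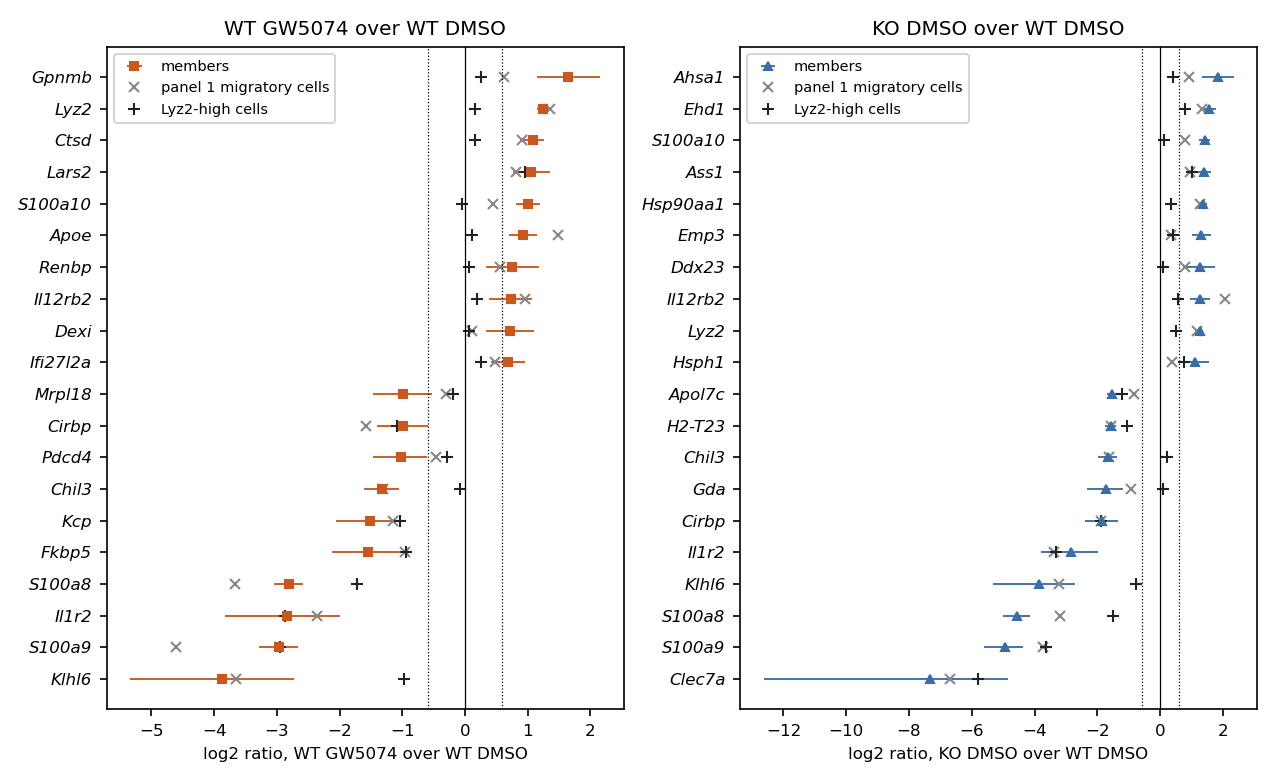
Log2 ratio (x) of WT GW5074 over WT DMSO (left) and of KO DMSO over WT DMSO (right) for the 10 highest and 10 lowest genes in the Il12b-Itgb8 cells (members, with 95% counting intervals), beside the same ratio in the Clu-Dkk2-Il2ra cells (panel 1, crosses) and Lyz2-high cells (plus signs), and dotted lines at 1.5-fold. Klhl6 is at -3.87 and -3.86 in the members and nearer 0 in Lyz2-high cells, and Clec7a is lowest in the knockout, at -7.33.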

How the data were processed

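Cells positive for CD11b or CD11c from lavage of bleomycin-treated mice gave 3 single-cell libraries. The authors deposited raw UMI counts per gene and cell barcode. Reads were processed with Cell Ranger 2.1.1 and the mm10 build, per the submitters' processing notes, and per the labels' protocols the chip was SeekOne while a label names 10x Genomics, so the platform is not settled here. The filters and the rule given in the opening were applied to these counts, UMIs were summed over the cells of each library, and levels are CPM of that sum.

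No test was run, since each group is 1 library. Ratios carry exact conditional binomial 95% intervals, levels exact Poisson intervals and shares exact Clopper-Pearson intervals, all for counting error only. The ratios and their intervals were tried on simulated Poisson counts, the model they assume. That trial cannot show how they behave where UMIs are concentrated in few cells, as for Il12b and Itgb8. Resting type 1-like cells had at least 3 UMIs over Xcr1, Clec9a, Naaa and Cadm1, more than over Cd209a, Mgl2, Clec10a and Ccr2, and type 2-like cells the reverse, both with fewer than 3 migratory UMIs. The Lyz2-high cells also had fewer than 3 migratory UMIs. List counts use genes of at least 10 CPM in 1 of the libraries compared.

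Named genes are the rule's genes, the interleukin 12 and integrin lists, the 15 highest and 15 lowest against the other migratory cells, the 10 highest and 10 lowest of each comparison (at least 50 CPM and 50 UMIs), and leading members of each list. Some list members were named after their values were seen. The cells and lists were chosen with earlier results of these data known. No doublet caller was used, and cells carrying other types' markers were left out as alternatives. In WT GW5074, KO DMSO and WT DMSO, 18.3%, 27.7% and 38.7% of Il12b-Itgb8 cells had at least 2 plasmacytoid dendritic cell UMIs. For T and NK cell markers the shares were 8.89%, 15.8% and 15.9%. Gene positions are GENCODE M21 on GRCm38, where 32236 of 32286 identifiers matched (99.8%). Python 3.11.15, numpy 2.4.6, scipy 1.17.1, pandas 2.3.3 and matplotlib 3.10.9 were used.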

Additional observations from a re-analysis of the deposited data

How the results depend on the processing

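No paired analysis was possible because each group is 1 library. Of 125 higher or lower gene calls, a 2-fold minimum ended 57. Thinning every cell to 1000 UMIs before the rule ended 49 and reversed 4, and leaving out cells with neutrophil UMIs ended 28 and reversed 7, while requiring 500 genes ended none. Klhl6 kept its call under each alternative, at -4.62 to -2.37 for WT GW5074 and -4.26 to -2.55 for KO DMSO (log2 over WT DMSO). The cause of the changes below was not tested.

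The log2 share ratio of WT GW5074 over WT DMSO, -0.47, passed 1.5-fold under stricter cell filters of 500 genes and 10% mitochondrial UMIs (-0.65), at least 3 panel UMIs (-0.62), the panel without Il12b (-0.59) and neutrophil-type cells out of the denominator (-0.88). The last also moved KO DMSO to -0.66. Counted among low-Lyz2 cells, a denominator chosen after seeing the data, the ratios turned to 0.71 for WT GW5074 and 0.82 for KO DMSO. The 167 higher and 323 lower genes of WT GW5074 became 530 higher with no Lyz2 limit, 191 lower with thinning, 64 and 130 at 2-fold, and 29 and 60 at 50 CPM or more. The 291 higher and 938 lower genes of KO DMSO became 433 lower with thinning, 92 and 396 at 2-fold, and 119 and 263 at 50 CPM or more.

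Reversed log2 ratios with no Lyz2 limit were 0.035 for Chil3 and 0.023 for Gda in WT GW5074, and 1.63 for Abca1 and 3.21 for Ccl2 in KO DMSO. Thbs1 in WT GW5074 turned to 0.66 with the panel at least 3 times its rivals, 1.46 with thinning, 0.13 without the 10% of cells with most UMIs, 0.75 without cells with neutrophil UMIs and 0.32 without those with plasmacytoid dendritic cell UMIs. Thinning gave -0.71 for Nr1h3 and -0.12 for Fasn in WT GW5074, and 0.84 for Dhcr7 in KO DMSO. Without the 10% of cells with most UMIs, Ccl3 in KO DMSO came to -1.26. Without cells with neutrophil UMIs, Chil3 came to 0.48, Egr1 to 0.037 and Ccr1 to 0.17 in WT GW5074, and Il1r2 to 0.18, Chil3 to 0.15 and Sirpa to 0.016 in KO DMSO. Of these, Il1r2 is itself on the list that removed the cells.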
